A study of Rattus norvegicus with 24 samples.

Results

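The circadian clock of the rat heart turns on 2 pairs of transcription factors that were read here by 8 probe sets: the repressors Nr1d1 (REV-ERB alpha) and Nr1d2 (REV-ERB beta), and the activators Bmal1 (older name Arntl) and Clock. They were found as all probe sets annotated to 1 of these 4 symbols and no other, which gave 1 probe set for Nr1d1, 3 for Nr1d2, 1 for Bmal1, and 3 for Clock, of 15866 probe sets tested and 10411 named genes. The genes were selected because their levels across the exposure groups were already known, so that every value of theirs is given as a description and carries no p. Where they are set against limits that include a p, the result is a description too.

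RNA came from the left ventricle plus septum of 24 male Wistar Kyoto (WKY) rats, 4 in each of 6 groups, with 1 Affymetrix Rat 230A array per rat. All rats were 12 to 14 weeks old when bought, lived under a 12-hr light cycle, and were dosed into the trachea with 1 ml/kg once a week. Controls received saline alone. MSH rats received Mount St. Helens ash, a volcanic dust free of water-soluble zinc. PM-HD rats received a whole suspension of oil combustion particles with 14.5 μg/mg zinc and 3.0 μg/mg nickel, and PM-LD rats received these particles at the lower dose, labelled 7.25 μg/mg zinc and 1.5 μg/mg nickel. PM-L rats received what saline leached from the particles, without solids, and zinc sulfate rats received the dissolved salt. Its concentration is 14.5 μg/ml in the sample labels and 33.4 μg/ml of zinc in the treatment protocol. In the paper 33.4 μg/kg of zinc is the weekly dose of its longer schedule. Rats dosed for 8 weeks received every component at a higher concentration, per the paper. Its design gave PM-HD, PM-L, and zinc sulfate rats the same soluble zinc, and PM-LD rats less. Necropsy followed the last instillation by 48 hr. The arrays were compared at 8 weeks, although for the PM-LD and PM-L arrays no source used here states how many weeks of dosing preceded them. No source used here states the clock hour of necropsy either, so that its part in any difference between groups was not tested.

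BMAL1 and CLOCK pair on DNA at E-box sequences and switch on Nr1d1, Nr1d2, the period and cryptochrome genes, and Dbp. The REV-ERB proteins bind heme, sit on elements that they share with the ROR activators, and recruit the NCOR-HDAC3 corepressor to shut down Bmal1 and Nfil3. In the heart this loop times genes of metabolism, conduction, and growth across the day, with the repressors and Bmal1 normally peaking at opposite phases.

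The start regions of the genes were searched for the letters through which each arm is known to act on the other. Those that held any of these letters are shown. RefSeq (GRCr8) gave 6 windows for the 4 genes, each from 250 bases before to 50 bases after a transcription start, written 5′ to 3′ on the strand of the gene. Capitals mark the letters searched for on both strands: the E-box CACGTG, its variant CACGTT, the nuclear receptor half-site AGGTCA, and the RORE, the longer element bound by REV-ERB and ROR, which contains a half-site.
Nr1d1, chr10:84229405-84229704, minus strand: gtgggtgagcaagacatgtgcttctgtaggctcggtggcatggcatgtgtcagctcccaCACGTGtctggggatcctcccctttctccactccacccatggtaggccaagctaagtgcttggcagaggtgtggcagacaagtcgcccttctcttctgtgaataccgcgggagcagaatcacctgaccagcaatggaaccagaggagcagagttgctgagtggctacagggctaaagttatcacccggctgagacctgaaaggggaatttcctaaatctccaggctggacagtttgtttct
Nr1d1, chr10:84231763-84232062, minus strand: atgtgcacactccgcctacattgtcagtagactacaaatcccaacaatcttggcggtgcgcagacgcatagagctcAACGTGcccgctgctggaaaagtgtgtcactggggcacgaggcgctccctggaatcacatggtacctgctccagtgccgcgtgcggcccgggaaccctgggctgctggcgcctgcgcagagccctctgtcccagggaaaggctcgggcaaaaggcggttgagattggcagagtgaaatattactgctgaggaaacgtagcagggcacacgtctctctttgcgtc
Nr1d2, chr15:9954784-9955083, plus strand: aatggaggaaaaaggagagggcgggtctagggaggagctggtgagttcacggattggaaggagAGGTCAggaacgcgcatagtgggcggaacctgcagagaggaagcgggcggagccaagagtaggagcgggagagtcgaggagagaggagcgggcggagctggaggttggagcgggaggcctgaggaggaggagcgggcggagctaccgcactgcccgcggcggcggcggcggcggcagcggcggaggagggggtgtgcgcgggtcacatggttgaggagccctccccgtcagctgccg
Bmal1, chr1:176766078-176766377, plus strand: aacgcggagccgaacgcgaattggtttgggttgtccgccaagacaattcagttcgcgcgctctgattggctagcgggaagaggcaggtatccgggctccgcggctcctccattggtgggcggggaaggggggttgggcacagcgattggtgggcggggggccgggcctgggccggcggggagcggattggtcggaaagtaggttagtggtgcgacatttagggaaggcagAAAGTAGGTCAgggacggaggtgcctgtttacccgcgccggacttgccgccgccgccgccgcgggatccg
One Nr1d1 window held an E-box that began 191 bases before the start, and the other held the variant on the opposite strand, 174 bases before the start. The Bmal1 window held a RORE that began 20 bases before the start, and its last 6 bases are the half-site AGGTCA. The Nr1d2 window held a half-site alone, 187 bases before the start. Neither Clock window held any of the letters searched for. Of all 33469 windows in the table, 6.42% held the E-box, 4.83% the variant, 16.2% the half-site, and 0.356% the RORE. The D-box TTATGTAA, the site of DBP and its relatives, was held by 0.893% of all windows and by none of these 6.

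Signals are linear MAS5 intensities, and log2 differences come from values raised by 16, logged, and quantile normalized, with the moderated standard error (SE) of limma. Signals of different probe sets are not comparable with each other, so levels were compared between rats for 1 probe set at a time. The arrays had median signals from 205.5 to 278.2. The Gapdh ratio (signal at the 3′ end of the transcript over that at the 5′ end, a measure of RNA integrity) ran from 1.113 to 5.624, and it was above 3 on 9 arrays, with at least 1 in every group. The mean log2 value of 4 atrial transcripts was above 11 on 6 arrays, in every group but PM-HD. All 5 ventricular markers measured (Myh6, Myl2, Myl3, Tnnt2, Tnni3) had signals from 14472.6 to 47381.5. In such whole tissue, fewer cells of a type and less RNA per cell cannot be told apart.

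Nr1d1 was low in saline hearts and highest in PM-LD, PM-L, and zinc sulfate hearts, with PM-HD and MSH between them. The 4 saline rats had Nr1d1 signals of 472.2, 391.0, 304.4, and 206.4 (mean 343.5 ± 114.2 SD, n = 4). MSH rats had 305.3, 874.5, 475.7, and 330.4 (497 ± 263, n = 4). One MSH rat lay far above the other 3, which shared the range of saline or came close to it. PM-HD rats had 843.3, 735.2, 430.8, and 1162.2 (793 ± 302, n = 4), with 1 rat inside the saline range. PM-LD rats had 1112.7, 986.4, 1112.4, and 730.6 (986 ± 180, n = 4). PM-L rats had 1017.1, 1140.3, 1049.7, and 938.7 (1036 ± 83.5, n = 4), the narrowest spread of the 6 groups. Zinc sulfate rats had 975.5, 956.9, 663.0, and 1090.7 (922 ± 182, n = 4). Every rat of PM-LD, PM-L, and zinc sulfate stood above every saline rat, and PM-HD and MSH overlapped saline. The log2 difference from saline in Nr1d1 was 0.44 (SE 0.38) in MSH, 1.17 (SE 0.38) in PM-HD, 1.57 (SE 0.33) in PM-LD, 1.65 (SE 0.33) in PM-L, and 1.46 (SE 0.38) in zinc sulfate. The last 3 correspond to 2.96-, 3.14-, and 2.74-fold. Zinc sulfate rats exceeded MSH rats by 1.01 (SE 0.38), and the MSH rat at 874.5 lay within the zinc sulfate range.

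**Figure D1:**
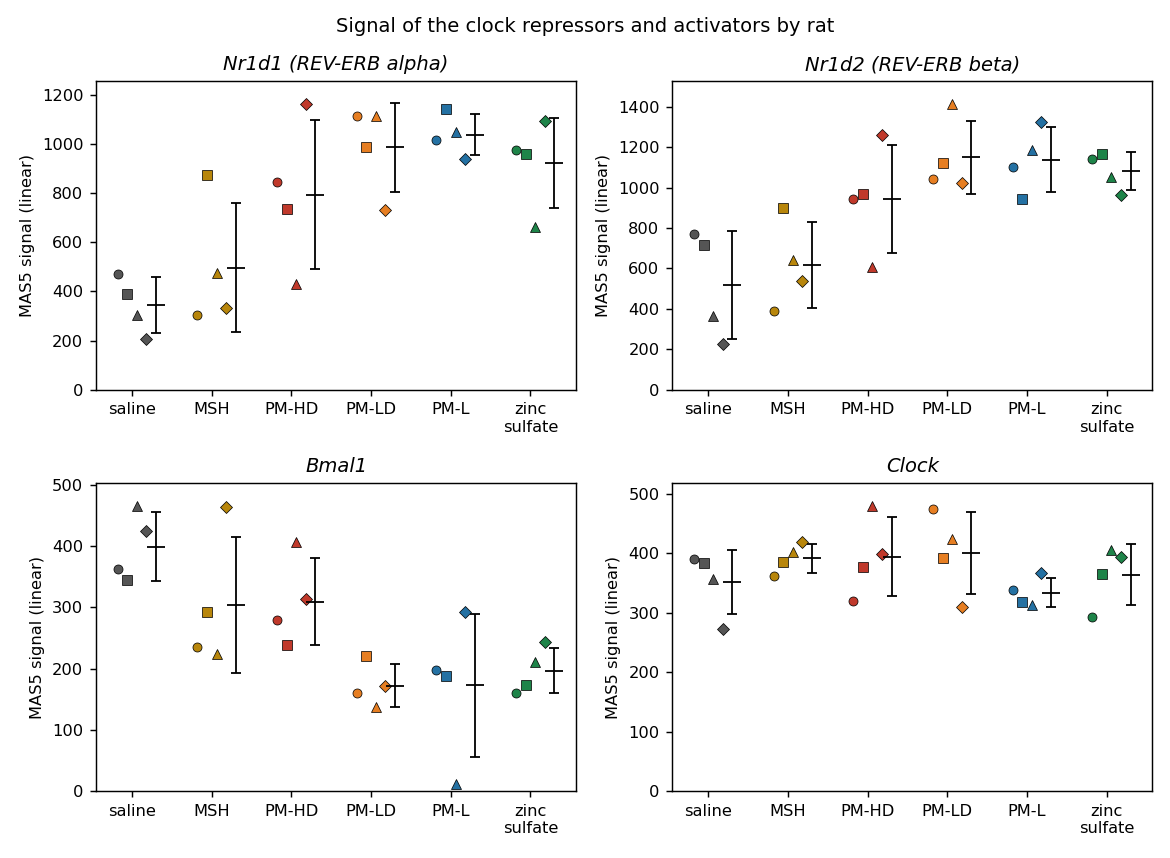
Signal (linear MAS5 intensity, vertical axis from 0) of the brightest probe set of Nr1d1, Nr1d2, Bmal1, and Clock in each of the 24 rats, by exposure group. Points are rats, with the same symbol for the same replicate number, and bars are mean ± SD (n = 4); Nr1d1 in PM-LD, PM-L, and zinc sulfate starts at 663.0, above the highest saline rat at 472.2, whereas Bmal1 in these groups lies below the lowest saline rat at 344.0.

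Nr1d2, the paralog of Nr1d1 with the same DNA target, was likewise lowest in saline and highest in PM-LD, PM-L, and zinc sulfate, with differences from saline smaller than those of Nr1d1 by its brightest probe set. Its brightest probe set read 772.5, 718.7, 363.8, and 225.0 in saline rats (520.0 ± 267.5, n = 4), the widest spread relative to the mean of any group. MSH rats had 390.7, 899.6, 640.5, and 539.7 (618 ± 214, n = 4). PM-HD rats had 944.8, 969.8, 607.3, and 1258.3 (945.0 ± 266, n = 4). The MSH rat and the PM-HD rat that stood apart in Nr1d1 were again the highest of MSH and the lowest of PM-HD. PM-LD rats had 1042.6, 1123.1, 1414.6, and 1025.2 (1151 ± 181, n = 4). PM-L rats had 1102.9, 943.0, 1187.8, and 1322.8 (1139 ± 159, n = 4). Zinc sulfate rats had 1143.2, 1168.4, 1051.7, and 965.8 (1082 ± 92.4, n = 4). These 3 groups lay wholly above saline, and zinc sulfate also lay wholly above MSH. On the log2 scale the brightest Nr1d2 probe set differed from saline by 0.37 (SE 0.37) in MSH, 1.00 (SE 0.37) in PM-HD, 1.33 (SE 0.32) in PM-LD, 1.32 (SE 0.32) in PM-L, and 1.246 (SE 0.37) in zinc sulfate. Without saline replicate 4, the rat at 225.0, the difference came to 0.62 in PM-HD, 0.96 in PM-LD, 0.95 in PM-L, and −0.006 in MSH. This saline rat had a Gapdh ratio of 5.48 and is among the 9 arrays above 3. Without all 9 the difference was 0.69 in PM-HD, 0.84 in PM-LD, 0.79 in PM-L, and 0.88 in zinc sulfate. These are all lower than with the 9 arrays, and the part of RNA integrity in this was not tested.

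The other Nr1d2 probe sets gave the same sign in each comparison with saline. The second, with a saline mean of 261.0 ± 135.8, differed from saline by 0.68 in MSH, 1.09 in PM-HD, 1.55 in PM-LD, 1.81 in PM-L, and 1.56 in zinc sulfate (SE 0.33 to 0.37). Over the 24 arrays it tracked the brightest with Pearson r of 0.934, a description over rats that share arrays and groups. The third was dim, at 16.85 ± 19.68 in saline, near the value of 16 added before the logarithm. It reached 107 ± 21.4 in PM-LD, where every rat lay above saline (log2 difference 2.06, SE 0.48), and overlapped saline in the other 4 groups. Its r with the brighter probe sets was 0.675 and 0.718.

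Bmal1, the activator that the REV-ERB proteins repress, ran the other way. Saline rats had Bmal1 signals of 362.1, 344.0, 466.0, and 424.7 (399.2 ± 56.4, n = 4). MSH rats had 234.7, 293.0, 224.7, and 462.9 (304 ± 110, n = 4). PM-HD rats had 278.9, 239.2, 406.3, and 313.0 (309 ± 71.3, n = 4). In MSH 3 rats lay below saline and 1 was as high as the saline rats, and in PM-HD the rat inside the saline range was the rat with the lowest Nr1d1. PM-LD rats had 160.9, 221.0, 137.0, and 171.3 (173 ± 35.4, n = 4). PM-L rats had 198.0, 187.4, 12.2, and 293.2 (173 ± 117, n = 4). Zinc sulfate rats had 161.1, 173.2, 210.7, and 243.5 (197 ± 37.4, n = 4). Every rat of these 3 groups stood below every saline rat. The Bmal1 log2 difference from saline was −0.49 (SE 0.22) in MSH, −0.38 (SE 0.22) in PM-HD, −1.12 (SE 0.50) in PM-LD, −1.60 (SE 0.50) in PM-L, and −0.88 (SE 0.22) in zinc sulfate. Zinc sulfate and MSH overlapped, with a log2 difference of −0.39 (SE 0.22).

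The PM-L rat with a Bmal1 signal of 12.2 had the highest Gapdh ratio of all 24 arrays, 5.624, while its Nr1d1 (1049.7) and Nr1d2 (1187.8) lay within the range of the other PM-L rats. Whether RNA integrity had a part in its Bmal1 value was not tested. Without this rat the Bmal1 difference was −0.76 in PM-L, less than the −1.60 with it, and in PM-LD it stayed at −1.12 with an SE of 0.23, since this rat also widened the common spread of the fit. The call in PM-LD was lost on leaving out any of 6 rats (saline replicates 1, 3, and 4 and PM-LD replicates 1, 3, and 4), with differences from −1.15 to −0.955 in these 6 fits. In MSH it was lost without any of 6 rats (saline replicates 1, 3, and 4 and MSH replicates 1, 2, and 3), with differences from −0.51 to −0.36, whereas without MSH replicate 4, the highest MSH rat, the difference was −0.70. Without the 9 arrays of high Gapdh ratio, this PM-L rat among them, the PM-L difference was −0.88, and without the 6 arrays of high atrial transcripts it was −2.53.

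Clock, the constant partner of BMAL1 in most tissues, differed little from saline by its brightest probe set, while its dimmest was lower in 3 groups. The brightest read 351.4 ± 53.9 in saline (273.8 to 391.1), 391.9 ± 24.4 in MSH (361.5 to 418.6), and 395 ± 66.3 in PM-HD (320.4 to 480.5). It read 401 ± 68.9 in PM-LD (310.6 to 474.7), 334 ± 24.95 in PM-L (312.8 to 367.8), and 365 ± 50.6 in zinc sulfate (293.3 to 406.3), with n = 4 in each group. Every group overlapped saline, and the log2 differences from saline ran from −0.06 in PM-L to 0.23 in PM-LD, each with an SE of 0.17. The 3 Clock probe sets did not read alike. The second differed from saline by −0.30 in MSH and by −0.10 to −0.18 in the other 4 groups. The third, dimmer at 110.5 ± 19.7 in saline, differed by −0.53 (SE 0.15) in MSH (mean 77.83), −0.41 (SE 0.15) in PM-HD (77.45), and −0.59 (SE 0.19) in PM-LD (66.7). On the normalized log2 scale every rat of these 3 groups lay below every saline rat, although in linear signal MSH overlapped saline. It was higher in zinc sulfate than in MSH by 0.47 (SE 0.15), again without overlap on the log2 scale, and differed from saline by −0.20 in PM-L and −0.06 in zinc sulfate. Pearson r between Clock probe sets over 24 arrays was −0.222, −0.286, and 0.226, so a direction for Clock depends on the probe set read.

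**Figure D2:**
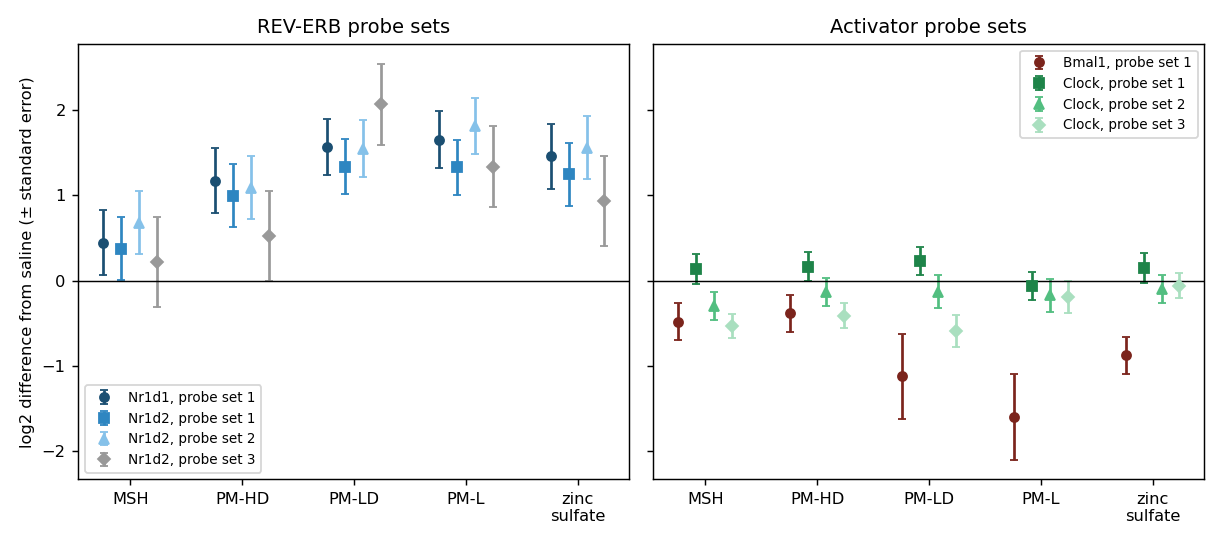
Log2 difference from saline (vertical axis, points, with bars of ± 1 SE) of all 8 probe sets in the 5 exposed groups, REV-ERB probe sets on the left and activator probe sets on the right. All 4 REV-ERB probe sets lie above 0 in every group, Bmal1 lies below 0 in every group, the brightest Clock probe set lies on both sides of 0, and the other 2 lie below 0 in every group, down to −0.59.

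Counted at an unadjusted p under 0.05 and a change of over 25% in either direction, which 3.57% of all probe sets met in MSH against saline, 1 of the 4 genes was past both limits there, Bmal1. In PM-HD, where 3.67% of all probe sets met them, 2 were, the REV-ERB genes. Nr1d1, Nr1d2, and Bmal1 met them in PM-LD (3 of 4, with 4.11% of all probe sets), in PM-L (3 of 4, with 4.25%), and in zinc sulfate (3 of 4, with 4.46%). Against MSH, zinc sulfate hearts differed in 2, Nr1d1 and Nr1d2, where 6.66% of all probe sets met the limits. Groups without overlap with saline were found for 3 of 4 genes in PM-LD, PM-L, and zinc sulfate, where 2.0%, 1.9%, and 2.58% of all probe sets did not overlap, and for none in MSH (3.07%) or PM-HD (1.85%). Between zinc sulfate and MSH, Nr1d2 did not overlap (1 of 4, with 5.55% of all probe sets). After Benjamini-Hochberg adjustment in limma, 2 probe sets passed in PM-L and 0 in each of the other 5 comparisons, where 603 to 1154 had an unadjusted p under 0.05. Outside MSH, Nr1d1 stayed past the limits in every exposed group on leaving out any rat, and Nr1d2 did so except in PM-HD, where it lost it without saline replicate 4 or PM-HD replicate 4. Against MSH, zinc sulfate lost Nr1d1 without MSH replicate 1 or 4 and Nr1d2 without MSH replicate 1 or 4 or zinc sulfate replicate 1 or 2. Without the 9 arrays of high Gapdh ratio, Nr1d2 was no longer past the limits in PM-HD (0.69) or against MSH (0.51), Nr1d1 against MSH fell from 1.01 to 0.64, and Nr1d1 in MSH (0.72) and Bmal1 in PM-HD (−0.54) came past them. Without the 6 arrays of high atrial transcripts, Bmal1 in MSH (−0.39) and, against MSH, Nr1d1 (0.77) and Nr1d2 (0.635) in zinc sulfate were not past the limits. The genes were chosen by these same contrasts, so that nothing is read from their counts or from calls kept on leaving out arrays. All 5 comparisons with saline use the same 4 saline rats.

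The order of the groups by mean log2 value was PM-L, PM-LD, zinc sulfate, PM-HD, MSH, and saline for Nr1d1, and it was the same for Nr1d2 with PM-LD first. In both genes only the step from PM-HD to MSH was larger than the pooled SD of the neighbouring groups, 0.73 against 0.66 for Nr1d1 and 0.63 against 0.48 for Nr1d2. For Bmal1 the order from the highest was saline, PM-HD, MSH, zinc sulfate, PM-LD, and PM-L. There the steps from saline to PM-HD (0.38 against 0.21) and from MSH to zinc sulfate (0.39 against 0.38) exceeded the spread. No step did so for Clock.

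A repressor to activator balance was formed in each rat as the mean log2 value of Nr1d1 and Nr1d2 minus that of Bmal1 and Clock. Its zero has no meaning, because probe sets differ in brightness, and it serves to compare rats. Saline rats had balances of 0.62, 0.51, −0.28, and −0.69 (mean 0.04 ± 0.63, n = 4). MSH rats had 0.27, 1.42, 0.85, and −0.06 (0.62 ± 0.65, n = 4), and PM-HD rats had 1.53, 1.36, 0.22, and 1.82 (1.23 ± 0.70, n = 4). Both groups overlapped saline, PM-HD through a single rat. PM-LD rats had 1.88, 1.62, 2.48, and 1.76 (1.93 ± 0.38, n = 4), PM-L rats had 1.91, 1.90, 3.81, and 1.80 (2.36 ± 0.97, n = 4), and zinc sulfate rats had 2.08, 1.87, 1.54, and 1.54 (1.76 ± 0.26, n = 4). All 12 of these rats exceeded all 8 rats of saline and MSH.

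Expressed as a ratio of repressors to activators, the balance was 1.49-fold that of saline in MSH, 2.28-fold in PM-HD, 3.72-fold in PM-LD, 4.98-fold in PM-L, and 3.29-fold in zinc sulfate. The PM-L difference of 2.32 on the log2 scale was 1.83 without the rat of low Bmal1. Without the 9 arrays of high Gapdh ratio the differences from saline were 0.85 in MSH, 1.17 in PM-HD, 1.47 in PM-LD, 1.62 in PM-L, and 1.55 in zinc sulfate. Without the 6 arrays of high atrial transcripts they were 0.89, 1.38, 2.19, 3.02, and 1.87 in the same order. Over the 24 rats the balance had r of −0.03 with the log2 Gapdh ratio and 0.07 with the atrial mean, as a description. A leaning that repressors and activators share cancels in the balance. Taken singly, r with the log2 Gapdh ratio was −0.26 for Nr1d1, −0.20 for Nr1d2, −0.24 for Bmal1, and −0.34 for Clock. Within groups these values were −0.34, −0.215, −0.40, and −0.38. No step between neighbouring groups in the order of the balance exceeded the pooled SD.

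**Figure D3:**
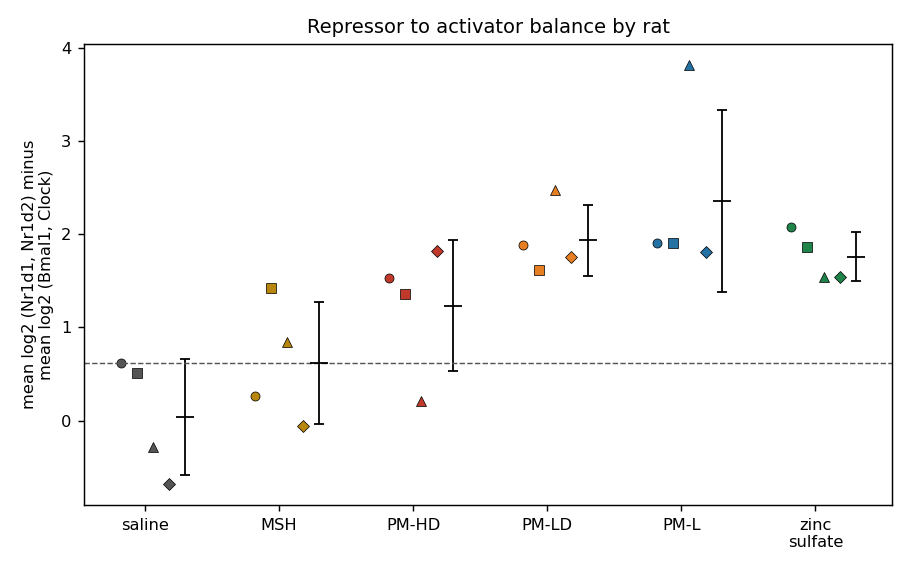
Repressor to activator balance (log2 units, vertical axis) of each of the 24 rats by exposure group, with mean ± SD (n = 4) beside the points. The dashed line is the highest saline rat, 0.62; all rats of PM-LD, PM-L, and zinc sulfate lie above it at 1.54 or more, and 1 PM-L rat stands at 3.81.

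The 2 arms did not contribute alike to the balance. In zinc sulfate hearts Nr1d1 made up 42.4% of the difference from saline, Nr1d2 36.3%, Bmal1 25.6%, and Clock −4.2%. In PM-HD the REV-ERB genes carried 49.1% and 41.8%, and Bmal1 carried 0.19 of the 1.19 log2 units. Bmal1 contributed most in MSH, with 41.8% of a small difference, and in PM-L, with 34.5%, which includes the rat of low Bmal1. Clock, by its brightest probe set, never contributed more than 1.36% in the direction of the balance. With the mean of all probe sets of each gene, Clock differed from saline by −0.23 in MSH, −0.13 in PM-HD, −0.16 in PM-LD, and −0.145 in PM-L. These differences lie in the direction of the balance, which was then 0.79, 1.27, 2.25, and 2.44 above saline in the same order. Nr1d2 changed with this setting too. In the same order it differed from saline by 0.42, 0.87, 1.65, and 1.49, against 0.37, 0.995, 1.33, and 1.32 by its brightest probe set.

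Rat by rat, the REV-ERB genes moved as a pair. Over 24 rats Nr1d1 and Nr1d2 had Pearson r of 0.932 (Spearman rho 0.808), 0.895 without the 2 rats farthest from the median of Nr1d1, and 0.819 after subtracting each group mean. Repressors and Bmal1 were opposed over all rats, with values nearer 0 within groups. Nr1d1 and Bmal1 had r of −0.491 (rho −0.587) over 24 rats and −0.111 (rho −0.217) within groups. Nr1d2 and Bmal1 had −0.470 (rho −0.654) over 24 rats and −0.130 (rho −0.317) within groups. In saline the 2 rats with the highest Nr1d1 and Nr1d2 were also the 2 with the lowest Bmal1. Bmal1 and Clock, the partners in 1 complex, had r of 0.320, and −0.0513 without 2 rats. These values share arrays, normalization, and groups, and are given without a p.

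**Figure D4:**
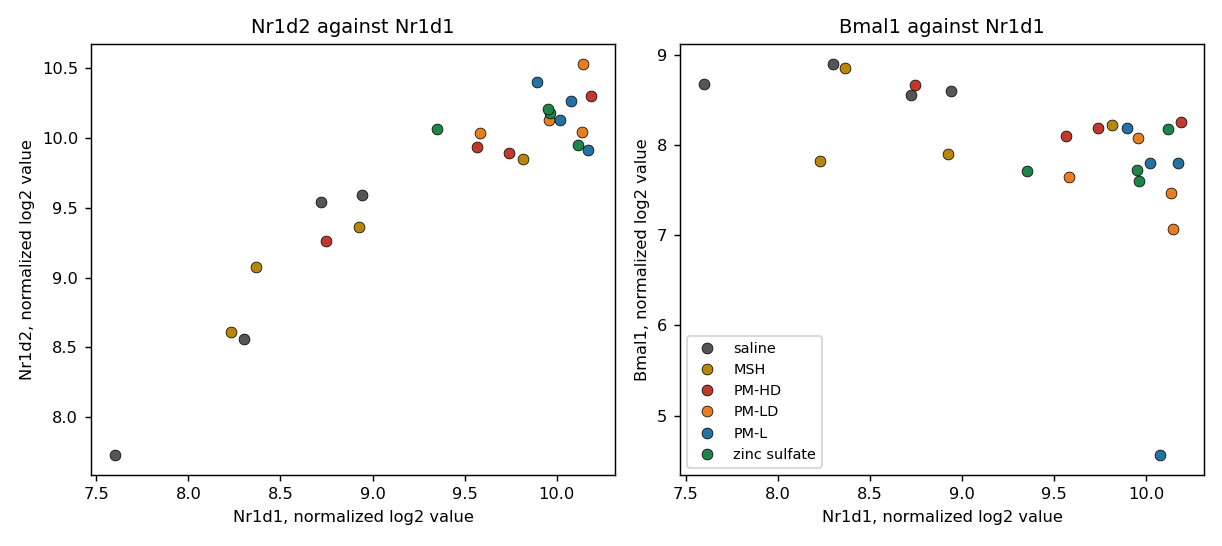
Normalized log2 value of Nr1d2 (left) and Bmal1 (right) against Nr1d1 (horizontal axis) in the 24 rats, coloured by exposure group. Nr1d2 follows Nr1d1 along 1 band from the saline rats to the exposed rats (r = 0.932), Bmal1 declines loosely with it (r = −0.491), and the PM-L rat of low Bmal1 stands alone at the bottom.

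The rest of the clock was read from a list of 22 genes, of which 14 were measured. Against saline, 0 of them rose and 1 fell in MSH, 2 rose and 1 fell in PM-HD, 5 rose and 0 fell in PM-LD, 4 rose and 2 fell in PM-L, and 3 rose and 0 fell in zinc sulfate, at the same p and fold limits. As shares these are 7.14%, 21.4%, 35.7%, 42.9%, and 21.4%, beside 3.57% to 4.46% of all probe sets. Their median log2 difference was −0.11, −0.03, 0.35, 0.41, and 0.27 in that order, and the median of all probe sets lay between −0.01 and 0.01. After Benjamini-Hochberg adjustment over all probe sets in limma, 1 of these calls was below an adjusted p of 0.05, Dbp in PM-L. The list was drawn up with earlier results of these arrays known, so its counts are not independent evidence of a direction.

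Among direct targets of BMAL1 and CLOCK, Dbp, a D-box activator, was the most changed. Its signal was 175 ± 49.0 in saline (124.0 to 230.4), 355 ± 298 in MSH (154.1 to 798.0), and 541 ± 235 in PM-HD (228.0 to 793.3). It was 944 ± 203 in PM-LD (782.7 to 1222.1), 1133 ± 436 in PM-L (762.4 to 1746.2), and 930.0 ± 222 in zinc sulfate (766.5 to 1239.3), with n = 4 rats throughout. The last 3 groups did not overlap saline, and the lowest PM-HD rat, at 228.0, lay inside the saline range. Dbp rose by 1.45 (SE 0.46) on the log2 scale in PM-HD, 2.38 (SE 0.42) in PM-LD, 2.61 (SE 0.42) in PM-L, and 2.35 (SE 0.46) in zinc sulfate, and by 1.67 (SE 0.46) in zinc sulfate against MSH. Its adjusted p from limma was 0.0402 in PM-L, 0.101 in PM-LD, 0.635 in zinc sulfate, and 0.999 in PM-HD, and the calls by p and fold were kept on leaving out any single rat.

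Tef, a second D-box activator, rose by 1.17 (SE 0.46) in PM-HD, 1.54 (SE 0.42) in PM-LD, and 1.63 (SE 0.42) in PM-L. Its difference of 0.79 (SE 0.46) in zinc sulfate was not past the limits, and the call in PM-HD was lost without saline replicate 3 or PM-HD replicate 1. Hlf, the third of this family, fell by 0.48 (SE 0.20) in MSH and passed in no other comparison with saline. That call was lost without saline replicate 1 or 4 or MSH replicate 1 or 2. Nfil3, the D-box repressor that REV-ERB represses as it does Bmal1, fell by 0.43 (SE 0.18) in PM-HD and 0.78 (SE 0.29) in PM-L. Its difference was −0.55 (SE 0.29) in PM-LD and −0.36 (SE 0.18) in zinc sulfate, neither past the limits. In PM-LD every rat lay below every saline rat (271 ± 25.4 against 421 ± 110), as for 2.0% of all probe sets. Nfil3 in PM-LD came past the limits without the PM-L rat of low Bmal1 or saline replicate 2, and with only the 2 groups in the fit (SE 0.205). It also did so with a pseudocount of 64, without further normalization, and without the arrays of Gapdh ratio above 3. In PM-L the fall rested on the rat of low Bmal1, without which the difference was −0.37. The PM-HD call of Nfil3 was lost without saline replicate 3 or 4 or PM-HD replicate 3 or 4, and also when arrays were centered on their medians. It was lost too with a pseudocount of 64, without further normalization, and with the replicate number as a block. The same held with all 24 arrays in 1 fit and with only the 2 groups in the fit. With only the 2 groups in the fit, the PM-L call of Nfil3 was lost as well.

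Of the period and cryptochrome arm, which closes the other loop of the clock, Cry2 rose by 0.49 (SE 0.20) in PM-LD, 0.43 (SE 0.20) in PM-L, and 0.41 (SE 0.17) in zinc sulfate. Per1, Per2, and Per3 passed in no comparison with saline, with Per1 between −1.01 and −0.03 and Per2 between 0.02 and 0.58. Bhlhe40 (DEC1), an E-box repressor, rose by 0.86 (SE 0.29) in PM-LD, 0.74 (SE 0.29) in PM-L, and 0.60 (SE 0.27) in zinc sulfate, and its relative Bhlhe41 (DEC2) rose by 1.26 (SE 0.51) in PM-LD. Rorb, the one measured ROR gene, was dim and fell by 1.51 in PM-L. The Cry2 calls were lost in all 3 groups without saline replicate 1, in PM-L also without saline replicate 2 or 4 or PM-L replicate 2, 3, or 4, in PM-LD without PM-LD replicate 3 or 4, and in zinc sulfate without zinc sulfate replicate 2 or 4. Bhlhe41 lost its call without saline replicate 4 or PM-LD replicate 2 or 4. Bhlhe40 kept its call in PM-LD on leaving out any rat. In PM-L it was lost without saline replicate 4 or PM-L replicate 2. In zinc sulfate it was lost without saline replicate 3 or 4 or zinc sulfate replicate 2 or 4. This zinc sulfate call of Bhlhe40 was also lost without further normalization, with only the 2 groups in the fit, and with the replicate number as a block. With only the 2 groups in the fit, Cry2 lost its calls in all 3 groups. Its calls in PM-LD and PM-L were also lost without further normalization, and that in zinc sulfate with all 24 arrays in 1 fit.

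Zinc sulfate and MSH hearts differed in 5 of the 14 clock genes, all higher with zinc sulfate (35.7%, beside 6.66% of all probe sets). Besides Dbp these were Per3 (0.63), Hlf (0.63), and the casein kinases that phosphorylate PER proteins, Csnk1d (0.61) and Csnk1e (0.83). The adjusted p of Dbp from limma was 0.502 here, and that of Hlf was 0.518. Dbp, Hlf, and Per3 kept these calls on leaving out any rat, but Per3, whose signal was near the 16 added before the logarithm, lost it with a pseudocount of 64 (0.27) and without further normalization (0.48), and Hlf lost it with the mean of its probe sets (0.37). Csnk1d lost its call without MSH replicate 4 or zinc sulfate replicate 1 or 2, and also with the mean of its probe sets (0.22). Csnk1e lost its call without MSH replicate 1 or 4 or zinc sulfate replicate 2, 3, or 4. Without further normalization the Csnk1e call was lost too (0.655). Against saline, zinc sulfate differed by 0.15 in Hlf, 0.205 in Csnk1e, 0.34 in Csnk1d, and 0.46 in Per3, none past the limits. MSH differed from saline by −0.48 in Hlf, −0.62 in Csnk1e, −0.265 in Csnk1d, and −0.17 in Per3.

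**Figure D5:**
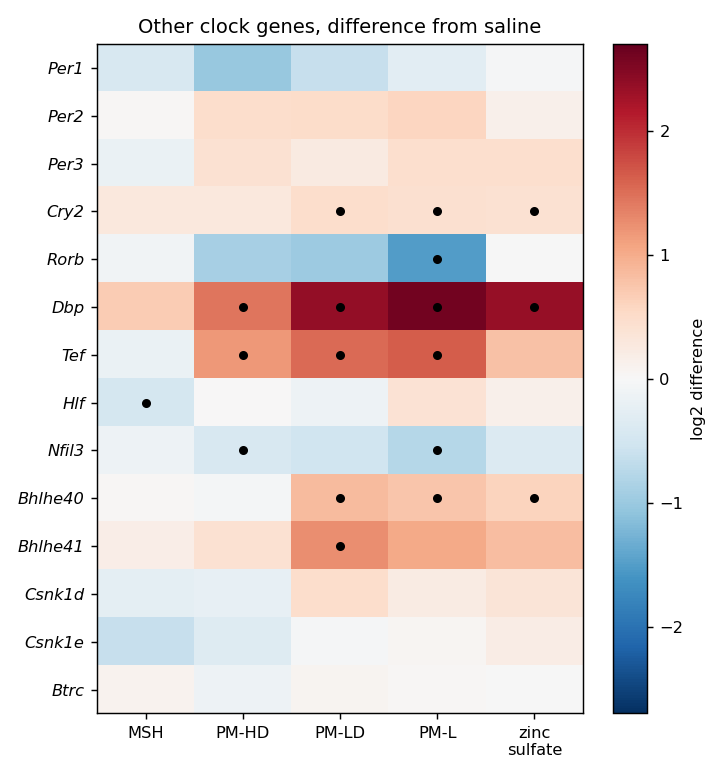
Log2 difference from saline (colour scale, red higher and blue lower) of the 14 other clock genes measured, in rows, for the 5 exposed groups, in columns. Black dots mark an unadjusted p under 0.05 with a change of over 25%; Dbp carries dots in 4 groups and reaches 2.61 in PM-L, and MSH has 1 dot, for Hlf.

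The genes through which the REV-ERB proteins act were mostly level. Of 13 corepressor and heme genes, 10 were measured. Against saline limma called 1 in zinc sulfate (10.0%, beside 4.46% of all probe sets). In the other 4 groups 0 were called and 0 had an unadjusted p under 0.05. Zinc sulfate against MSH again had 1 (10.0%, beside 6.66%). The gene that fell was Tbl1x, a subunit of the NCOR complex, by 0.62 (SE 0.26) against saline and by 0.94 (SE 0.26) against MSH, at 183 ± 79.2 compared with 307 ± 101 in saline and 382 ± 53.5 in MSH (n = 4 each). The call against saline was lost without saline replicate 1 or 3 or zinc sulfate replicate 2 or 4, and the call against MSH was kept on leaving out any rat. Of 20 heart genes known to follow the clock, 18 were measured. Against saline, limma called 0 in MSH, 1 each in PM-HD, PM-LD, and PM-L, and 2 in zinc sulfate. As shares these are 0.0%, 5.56%, 5.56%, 5.56%, and 11.1%, beside 3.57% to 4.46% of all probe sets. A count of 1 of 18 is close to that share, and nothing is read from these counts. In MSH 1 gene, Cdkn1a, had an unadjusted p under 0.05 with a smaller fold. Cdkn1a (p21), a cell cycle inhibitor, fell by 0.60 (SE 0.23) in PM-LD and 0.66 (SE 0.17) in zinc sulfate. Neither group overlapped saline, and the PM-LD call was lost without PM-LD replicate 2. The Cdkn1a difference was −0.40 in MSH, −0.35 in PM-HD, and −0.47 in PM-L, not past the limits by its brightest probe set. With the mean of its probe sets it came past them in each of these groups (−0.80, −0.83, and −1.09). The paper lists Cdkn1a as decreased in MSH and PM-HD. Tspan4 rose by 0.90 (SE 0.41) in PM-HD and 1.03 (SE 0.41) in zinc sulfate, with overlap, and lost both calls without saline replicate 1, 2, or 3. The PM-HD call was also lost without PM-HD replicate 1, 3, or 4, and the zinc sulfate call without zinc sulfate replicate 3. Ucp3, a mitochondrial carrier, fell by 0.43 (SE 0.19) in PM-L, a call lost without saline replicate 2 or 4 or PM-L replicate 1 or 4. Against MSH, zinc sulfate hearts were higher in Kcnh2, a potassium channel gene, by 0.60 (SE 0.22). They were also higher in Dgat2, an enzyme of triglyceride synthesis, by 0.60 (SE 0.19). These are 2 of 18 genes (11.1%, beside 6.66% of all probe sets). Against saline, zinc sulfate hearts differed by 0.19 in Kcnh2 and 0.31 in Dgat2. MSH hearts differed from saline by −0.41 in Kcnh2 and −0.29 in Dgat2. None of these differences from saline was past the limits. Kcnh2 lost its call without MSH replicate 3.

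Several of the calls on single genes outside the core loop ended on smaller sets of arrays. Without the 9 arrays of Gapdh ratio above 3, this held for Hlf in MSH (−0.395), Nfil3 in PM-HD (−0.12) and PM-L (−0.11), Cry2 in PM-LD (0.33), PM-L (0.275), and zinc sulfate (0.43), Ucp3 in PM-L (−0.28), and Csnk1e against MSH (0.33). Without the 6 arrays of high atrial transcripts, it held for Hlf in MSH (−0.225), Nfil3 in PM-HD (−0.47), Cry2 in PM-L (0.18) and zinc sulfate (0.26), Bhlhe40 in PM-L (0.65) and zinc sulfate (0.57), Tbl1x in zinc sulfate (−0.23), and Tspan4 in PM-HD (0.755) and zinc sulfate (0.995). Against MSH it also held for Csnk1d (0.49), Csnk1e (0.48), Dgat2 (0.49), and Kcnh2 (0.51). All of these kept their sign. The calls of Dbp against saline and against MSH were kept in both sets.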

How the data were processed

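Each rat's Affymetrix Rat 230A array was summarized by the authors with Microarray Suite 5.0 (MAS5, per the labels), and the deposited values are linear signal intensity, scaled array by array. The study's own tests ran on robust multiarray averages, not analysed here. Groups came from the labels, and replicates are separate rats.

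The 57 control probe sets were left out. Signals were raised by 16, logged (log2), and quantile normalized over the 24 arrays. Group means were estimated with limma 3.58.1 (R 4.3.3), tested on simulated data first, from all 24 arrays where PM-LD or PM-L took part and otherwise from the 16 arrays of the remaining groups. Calls used the thresholds of the study, an unadjusted p under 0.05 and a change of over 25%. Between 4.7% and 10.64% of signals per array were below 16, and fold changes of dim probe sets are understated. With 4 arrays per group precision is limited. Benjamini-Hochberg adjustment covered all 15866 probe sets.

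Of these, 12783 carried 1 gene symbol, 312 several, and 2771 none, and 12748 matched RefSeq (GRCr8). None with several symbols named any of the 4 genes. A gene was read by its brightest probe set. Named were the 4 genes, called genes of 14 other clock genes, up to 4 called of lowest p in each other list and comparison, and, for likeness over the 24 arrays, the 5 genes at each end for the balance and 3 at each end for each of the 4 genes. The genes and lists were chosen with earlier results of these data known. Alternatives were another pseudocount, scaling, filter, prior, sample set, or probe set rule, no fold limit, the replicate number as a block, and leaving out arrays.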

Additional observations from a re-analysis of the deposited data

Results flagged for a closer look

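In 54 sets of 4 rats (8 probe sets and the balance, in 6 groups), 1 rat lay far from the other 3 in 3 sets, where about 2.7 would do so by chance. The dimmest Nr1d2 probe set read 46.2 in 1 saline rat and 5.4 to 10.0 in the others. The same probe set read 112.5 in 1 PM-HD rat and 12.0 to 17.9 in the others. The repressor to activator balance was 3.81 in the PM-L rat of low Bmal1 and 1.80 to 1.91 in the other PM-L rats.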

How the results depend on the processing

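No alternative reversed a difference in Nr1d1, Nr1d2, Bmal1, or the balance that exceeded 1 SD, and every gene called kept its sign under the other pseudocounts and scalings. The SD here is the pooled SD of the 2 groups compared. For the differences of Nr1d1, Nr1d2, and Bmal1, 97 of 97 values each stayed within 1 SD of the main value. That limit is wide, so the count does not show that a difference was stable. Within it Bmal1 in PM-L ran from −2.53 to −0.76, and Nr1d2 in MSH from −0.006 to 0.82. Clock moved further in 4 of 97, all with the mean of its 3 probe sets. These were −0.23 in MSH, −0.13 in PM-HD, −0.16 in PM-LD, and 0.23 in zinc sulfate against MSH. Taken as Nr1d1 minus Bmal1, the balance differed from saline by 2.69 in PM-LD, 3.25 in PM-L, and 2.33 in zinc sulfate. With only probe sets above the median, 170 were called in MSH, 164 in PM-HD, 216 in PM-LD, 225 in PM-L, 221 in zinc sulfate, and 538 in zinc sulfate against MSH (567, 583, 652, 674, 707, and 1056 over all probe sets), because fewer were tested, and the other clock genes called were 0 in MSH, 3 in PM-LD, 3 in PM-L, and 2 in zinc sulfate against MSH. Without the arrays of Gapdh ratio above 3, the calls rose to 979 in PM-LD, 1105 in zinc sulfate, and 2094 in zinc sulfate against MSH. The single clock gene called in MSH was lost (0) with a pseudocount of 64, without further normalization, with the mean of all probe sets, and without the arrays of high atrial transcripts. Without the arrays of Gapdh ratio above 3 the count stayed at 1, but the gene was Dbp, higher by 1.115, in place of Hlf. In zinc sulfate 1 clock gene was called with only the 2 groups in the fit, and in zinc sulfate against MSH 3 without further normalization. The causes were not tested. The split of higher to lower calls was 376 to 177 in MSH without further normalization (290 to 277 with quantiles), 259 to 483 in zinc sulfate (382 to 325), and 361 to 891 in zinc sulfate against MSH (581 to 475), the last 852 to 403 with median centering. Bmal1 fell short of the limits in MSH without further normalization (−0.42), with all 24 arrays in 1 fit (−0.485, SE 0.50), and with only the 2 groups in the fit (SE 0.23), in PM-LD with a pseudocount of 1 (−1.19, SE 0.69), and in zinc sulfate with all 24 arrays in 1 fit (−0.88, SE 0.50). Without further normalization Bmal1 came past them in zinc sulfate against MSH (−0.545).

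Leaving out each rat in turn, the number of probe sets called ran from 548 to 666 in MSH, 528 to 867 in PM-HD, 534 to 933 in PM-LD, 599 to 902 in PM-L, 579 to 1315 in zinc sulfate, and 784 to 2306 in zinc sulfate against MSH, the 1315 and 2306 without zinc sulfate replicate 3. The number of other clock genes called ran from 0 to 2, 2 to 4, 3 to 6, 5 to 7, 2 to 5, and 4 to 6 in the same order, and the difference in balance from 0.31 to 0.81, 0.95 to 1.53, 1.65 to 2.09, 1.83 to 2.51, 1.48 to 1.91, and 0.91 to 1.40. The alternative without PM-L replicate 3 for PM-LD against saline was chosen after seeing the data. Deviations from the group means correlated above 0.1 in 21 of 60 pairs of rats of equal replicate number (median r 0.056, from −0.26 to 0.523). Pairs of unequal number were not compared, so whether the replicate numbers of the labels pair the rats was not tested. With the replicate number as a block, the probe sets called were 579, 612, 729, 719, 721, and 1102, and the other clock genes called 1, 2, 5, 7, 2, and 6, in the same order.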

Other observations

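Among 6010 genes brighter than the median, those whose log2 values followed the repressor to activator balance most closely over the 24 arrays were Dbp (Pearson r 0.957, Spearman rho 0.942), Tcap (0.924, 0.845), Ivns1abp (0.749, 0.766), Ephx1 (0.718, 0.725), and G3bp1 (0.702, 0.435). Tcap encodes telethonin, a protein of the sarcomeric Z disc, and like Dbp it also followed the balance after each group mean was subtracted, with r of 0.846 for Tcap and 0.89 for Dbp. The strongest opposite values were those of Daam1 (r −0.727), Slc38a2 (−0.727), an amino acid transporter, Gja1 (−0.716), the connexin 43 gene of the gap junction, Nfil3 (−0.711), and Inpp5j (−0.675). Within groups Gja1 had r of −0.286 and Daam1 −0.381, so that most of their likeness lay between groups.

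Taken singly, Nr1d1 was most like Dbp (r 0.943), Tcap (0.859), and C1h11orf58 (0.719), and most unlike Slc38a2 (−0.718), Asb2 (−0.714), and Daam1 (−0.701). Nr1d2 was most like Dbp (0.898), Tcap (0.88), and Pnrc2 (0.744), and most unlike Asb2 (−0.72), Pi4kb (−0.718), and Ap3b1 (−0.694). Bmal1 was most like Nfil3 (r 0.811, rho 0.509), Slc2a1 (0.767, 0.19), and Cd63 (0.761, 0.35), and most unlike Pms2 (−0.745), Ngrn (−0.739), and Cdc25b (r −0.706, rho −0.18). The low rank correlations of Slc2a1, Cd63, and Cdc25b stand beside the 1 PM-L rat of low Bmal1. Clock was most like Atp6v1c1 (0.724), Pdpk1 (0.702), and Dipk2a (0.688), and most unlike Letmd1 (−0.755), Taok2 (−0.667), and Ccn3 (−0.653). All of these are the ends of a ranking over 6010 genes on the same arrays and are given as a description.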
